A study of Mus musculus with 9 samples.

Results

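The genes described here are those of pacemaking in the heart: the ion channel genes Hcn2 and Hcn4 and the sinus node transcription factor genes Tbx3, Tbx18, Shox2 and Isl1. They were chosen by name and taken with every probe set (a group of short DNA probes that reads 1 transcript) annotated to them, which gave 12 of the 45101 probe sets on the array and 5 of the 6 genes. Tbx3 had 5 probe sets, Tbx18, Shox2 and Isl1 had 2 each, and Hcn2 had 1. No probe set was annotated to Hcn4 in the platform table used, so Hcn4 is not analysed here. In the mouse genome (RefSeq, GRCm38.p6) Hcn2 lies at chr10:79716634-79736108, Tbx3 at chr5:119670534-119684724, Tbx18 at chr9:87702800-87731260, Shox2 at chr3:66971723-66981771 and Isl1 at chr13:116298270-116309688. The cells were cardiomyocytes made from the synp line, which derives from R1 mouse embryonic stem cells of 129X1 x 129S1 background, and all groups carried the same transgene, a puromycin resistance gene (PAC) driven by the promoter of Ncx1, the sodium-calcium exchanger gene now called Slc8a1. Every culture received Activin A, BMP4, VEGF, bFGF and FGF10 to direct differentiation and puromycin from day 7 to remove cells in which that promoter was silent. The groups were cultures of day 10, day 20 and day 30, with 3 arrays each, and the question was how far such cells mature with time in culture. All arrays came from this 1 line, and nothing in the labels tells whether the 3 arrays of a day stem from separate cultures. The p-values therefore weigh differences only against the spread among these arrays, part of which may be technical.

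The heartbeat starts in the sinus node. HCN channels open when the membrane becomes negative and let in the pacemaker current, also called the funny current, which brings a node cell back to threshold; Hcn4 is the main node form and Hcn2 is found in node and working muscle. Tbx18 and Shox2 are needed to form and pattern the sinus node, Tbx3 represses the genes of working muscle there, and Isl1 marks the second heart field, a pool of heart progenitors, and stays on in node cells. Each of the 4 factors also has work elsewhere: Tbx18 in the epicardium, the outer layer of the heart, Shox2 and Tbx3 in limb mesenchyme, and Isl1 in motor and sensory neurons.

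The library-wide picture was as follows. All 12 cardiomyocyte markers examined were measured, and their mean log2 signal lay between 12.10 and 12.88 in the 9 arrays. A list of 11 measured fibroblast and matrix markers had means of 7.73 to 8.41 at day 10, 10.06 to 10.88 at day 20 and 11.44 to 11.66 at day 30. Medians of the 9 arrays lay within 0.07 of each other. The 18S ribosomal RNA signal was 10.27 in the day 30 array numbered 2 and 12.07 to 13.44 in the others, and the same array had the highest difference between the 3 prime and 5 prime probe sets of beta-actin (0.79, against 0.23 to 0.59). In the day 10 arrays numbered 2 and 3 the poly-A control transcripts averaged 5.25 and 5.13, against 5.93 to 6.63 elsewhere. In bulk RNA, fewer cells of a type and less RNA per cell cannot be told apart.

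None of the 12 probe sets passed the test for a change with the age of the culture. With limma, which fitted all 45037 probe sets that are not array controls, 0 of 12 passed an adjusted p of 0.05 between day 20 and day 10, where 9.02% of all probe sets passed, and 0 of 12 between day 30 and day 10, where 15.1% passed. Between day 30 and day 20, 0 of 12 passed against 0.135% of all (61 probe sets, and 2 with the replicate number as a block). The test over all 3 days called 0 of 12 (11.9% of all), and the test of whether the later change differed from the earlier one called 0 of 12 (0.133% of all). At an unadjusted p under 0.05 limma gave 1 of 12 between day 30 and day 20 (9.32% of all), the Tbx3 probe set 1437479_x_at. It gave 0 of 12 in the other 2 contrasts (25.0% and 29.3% of all), over all 3 days (27.4%) and between the intervals (13.0%). Behind these counts lay unlike cases: Hcn2 varied little between arrays, whereas Isl1 and Tbx18 varied widely from array to array of the same day.

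**Figure D1:**
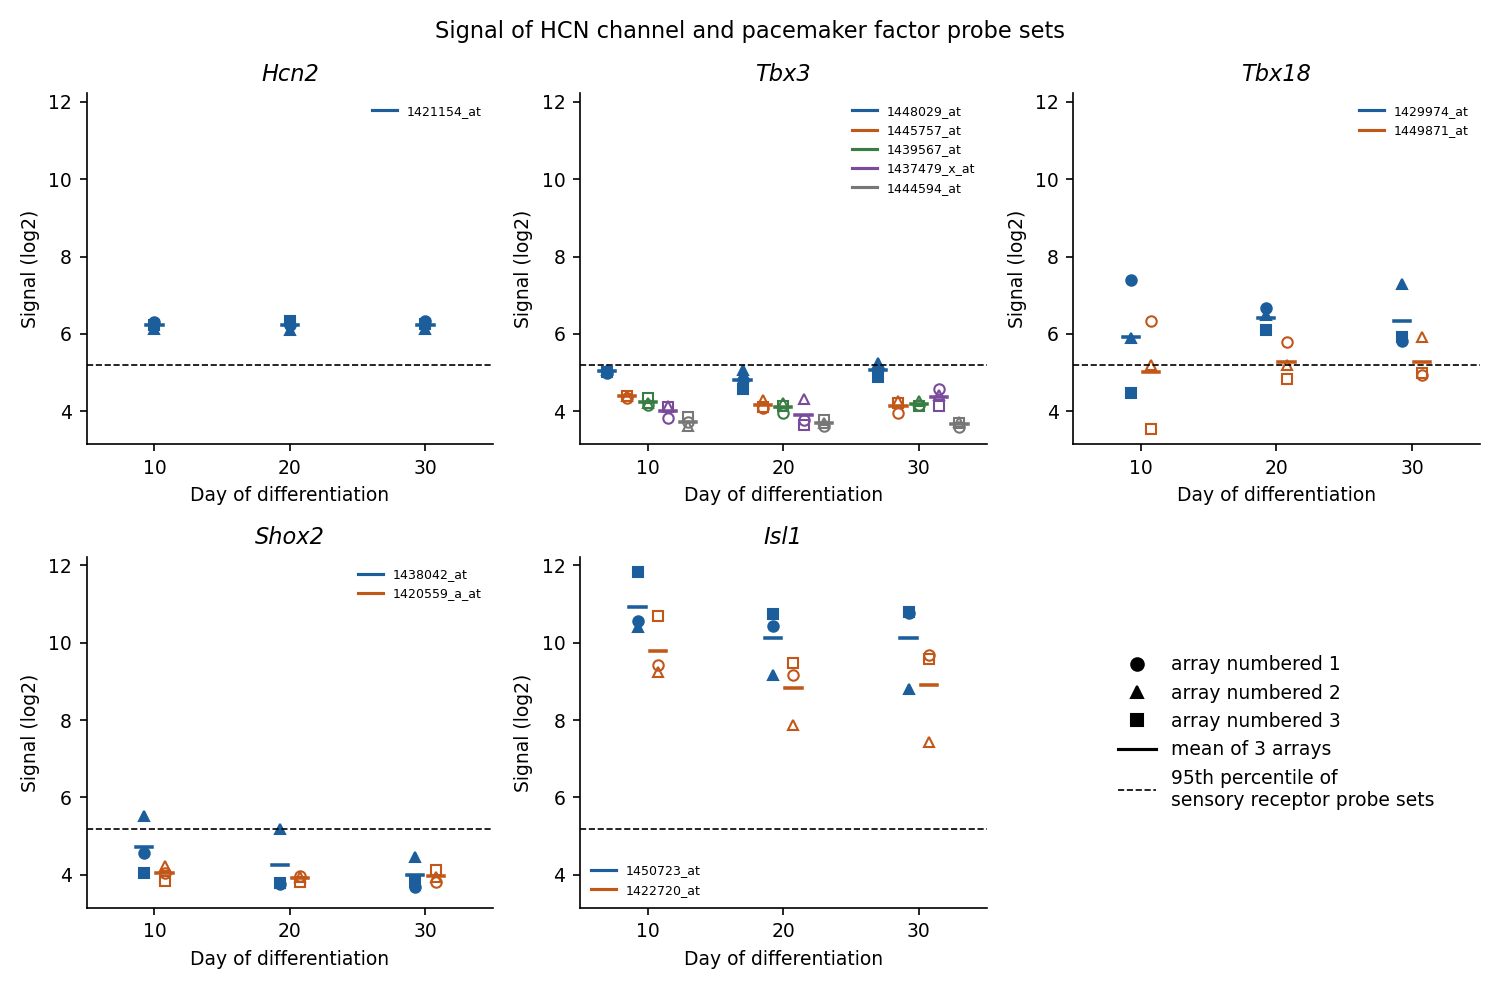
Log2 signal of each probe set (vertical axis) at day 10, 20 and 30 (horizontal axis), with a panel for each gene, a colour for each probe set, a symbol for each array number, filled symbols for the brightest probe set and a short line for the mean of 3 arrays. Hcn2 stays between 6.09 and 6.33, while the brightest Isl1 probe set spans 8.80 to 11.81 and that of Tbx18 spans 4.47 to 7.39, and the days overlap for every gene's brightest probe set.

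Hcn2, which encodes a channel subunit of the pacemaker current, varied little. Its probe set 1421154_at read 6.32, 6.12 and 6.24 at day 10, 6.24, 6.09 and 6.33 at day 20, and 6.33, 6.12 and 6.27 at day 30 (log2 signal, arrays numbered 1, 2 and 3). The 3 days overlapped fully, with means of 6.23 ± 0.10, 6.22 ± 0.12 and 6.24 ± 0.11 (SD, n = 3). Day 30 differed from day 10 by 0.01 (95% interval -0.22 to 0.24, limma adjusted p = 0.96), so that a change of signal above 0.24 in either direction lay outside the interval. The sign of so small a difference has no weight: it was -0.04 without the day 10 array numbered 2, -0.03 without the day 30 array numbered 1 and -0.02 after quantile normalization. Hcn2 rests on 1 probe set, with a mean of 6.23 against a median of 6.63 over the brightest probe sets of all genes. The narrow interval thus limits its signal, and how closely this probe set follows the RNA was not tested. Hcn3, a related channel gene, had means of 6.31 ± 0.15, 6.23 ± 0.16 and 6.17 ± 0.18 (SD, n = 3) and differed by -0.15 between day 30 and day 10 (95% interval -0.45 to 0.16, limma adjusted p = 0.53).

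To judge dim signals, 86 probe sets of olfactory, vomeronasal and taste receptor genes, which heart cells are not known for, served as a rough reference: the 95th percentile of their mean signals was 5.19. A probe set whose mean was below this at all 3 ages is called dim. This is no detection test, since probes differ in how they bind, and 40.8% of all probe sets were dim by this rule. All 5 Tbx3 probe sets and both Shox2 probe sets were dim, while those of Hcn2, Tbx18 and Isl1 were not. In dim probe sets a change of RNA is compressed on the log2 scale, so that a narrow interval there limits the signal and not the RNA.

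Tbx3, the repressor of working muscle genes in the node, had day means in the dim range on all its probe sets, with 1 array above the reference (5.24, in the day 30 array numbered 2). The brightest, 1448029_at, read 5.0, 5.07 and 5.03 at day 10, 4.81, 5.07 and 4.59 at day 20, and 5.09, 5.24 and 4.89 at day 30. These values overlapped between days, and day 30 differed from day 10 by 0.04 (95% interval -0.27 to 0.36, limma adjusted p = 0.88), and by -0.04 without the day 30 array numbered 2. Of its other probe sets, 1439567_at differed by -0.05 and 1444594_at by -0.06, with adjusted p-values of 0.79 and 0.73. The remaining pair went opposite ways without passing. On 1445757_at the day 30 arrays (3.96 to 4.26) lay below all day 10 arrays (4.35 to 4.41), a difference of -0.24 (limma adjusted p = 0.17). On 1437479_x_at the day 30 arrays (4.14 to 4.58) lay above all day 10 arrays (3.82 to 4.13), a difference of 0.37 (limma adjusted p = 0.26). The suffix _x_at marks probe sets with probes that can also match other transcripts. Such non-overlap between day 30 and day 10 held for 2 of 12 members' probe sets and for 32.0% of all probe sets. Against day 20, 1445757_at alone did not overlap with day 10 (1 of 12, against 28.1% of all), and 0 of 12 did not overlap between day 30 and day 20 (19.0% of all).

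Shox2, which acts upstream of the node programme and restrains the working muscle factor Nkx2-5, gave unlike readings on its probe sets. The brighter, 1438042_at, read 4.56, 5.52 and 4.06 at day 10, 3.77, 5.19 and 3.80 at day 20, and 3.70, 4.45 and 3.82 at day 30. The array numbered 2 was the highest of its day at every age. Its day means were 4.71 ± 0.74, 4.25 ± 0.81 and 3.99 ± 0.40 (SD, n = 3), with day 30 differing from day 10 by -0.72 (95% interval -1.82 to 0.37, limma adjusted p = 0.37). That difference came close to the threshold under 2 other settings, with limma adjusted p = 0.057 with the replicate number as a block and 0.053 with array weights (where it was -1.35). The block included day 10, whose array numbers did not pair with those of the later days. The difference was -0.32 without the day 10 array numbered 2. Between day 30 and day 20 the difference was -0.26, and 0.21 without the day 20 array numbered 2. The other probe set, 1420559_a_at, ran from 3.82 to 4.24 over the 9 arrays and had its highest array at number 2 at day 10 alone. Day 30 differed from day 10 by -0.08 on it (95% interval -0.36 to 0.20, limma adjusted p = 0.72).

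Isl1 was read at high signal throughout, at the 95.2nd percentile of all probe sets, and it varied between arrays of the same day. Its brighter probe set, 1450723_at, read 10.57, 10.41 and 11.81 at day 10, 10.42, 9.17 and 10.73 at day 20, and 10.77, 8.80 and 10.80 at day 30. At each age the array numbered 2 was the lowest and the array numbered 3 the highest. Day means were 10.93 ± 0.77, 10.11 ± 0.83 and 10.13 ± 1.14 (SD, n = 3). Day 20 differed from day 10 by -0.82 (95% interval -2.32 to 0.67, adjusted p = 0.50) and day 30 from day 10 by -0.80 (-2.30 to 0.69, limma adjusted p = 0.47). The lower mean at the later ages was thus of the size of the SD between arrays, and a fall of up to 2.30 or a rise of up to 0.69 lay within the interval. Between day 30 and day 10 it was -0.14 without the day 30 array numbered 2 and -0.36 without the day 10 array numbered 3. Day 30 differed from day 20 by 0.02, but by -0.45 without the day 20 array numbered 2, -0.30 without the day 30 array numbered 1 and -0.32 without the day 30 array numbered 3. The second probe set, 1422720_at, read 1.09 to 1.38 lower on every array, so that the variation between arrays was seen by both. Its day 30 minus day 10 difference was -0.88 (95% interval -2.48 to 0.71, limma adjusted p = 0.46).

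Tbx18, the factor of the early sinus venosus and of the epicardium, varied as widely. Its brighter probe set, 1429974_at, read 7.39, 5.90 and 4.47 at day 10, 6.67, 6.50 and 6.10 at day 20, and 5.81, 7.28 and 5.93 at day 30. Day 10 alone held the highest and the lowest of the 9 values, and the days overlapped. The means were 5.92 ± 1.46, 6.42 ± 0.29 and 6.34 ± 0.81 (SD, n = 3). Day 30 differed from day 10 by 0.42 (95% interval -1.16 to 2.0, limma adjusted p = 0.75). Single arrays turned its sign: the difference was -0.30 without the day 10 array numbered 3 and -0.05 without the day 30 array numbered 2, while it was 1.15 without the day 10 array numbered 1. Day 20 minus day 10 was 0.50 (limma adjusted p = 0.72), and -0.22 without the day 10 array numbered 3. Day 30 minus day 20 was -0.08 (limma adjusted p = 0.99), and 0.04, 0.18 and 0.12 without the day 20 array numbered 1 or the day 30 arrays numbered 1 or 3. The second probe set, 1449871_at, was 0.71 to 1.37 lower on every array and ranked the arrays of each day alike, with a day 30 minus day 10 difference of 0.25 (95% interval -1.22 to 1.72, limma adjusted p = 0.84).

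**Figure D2:**
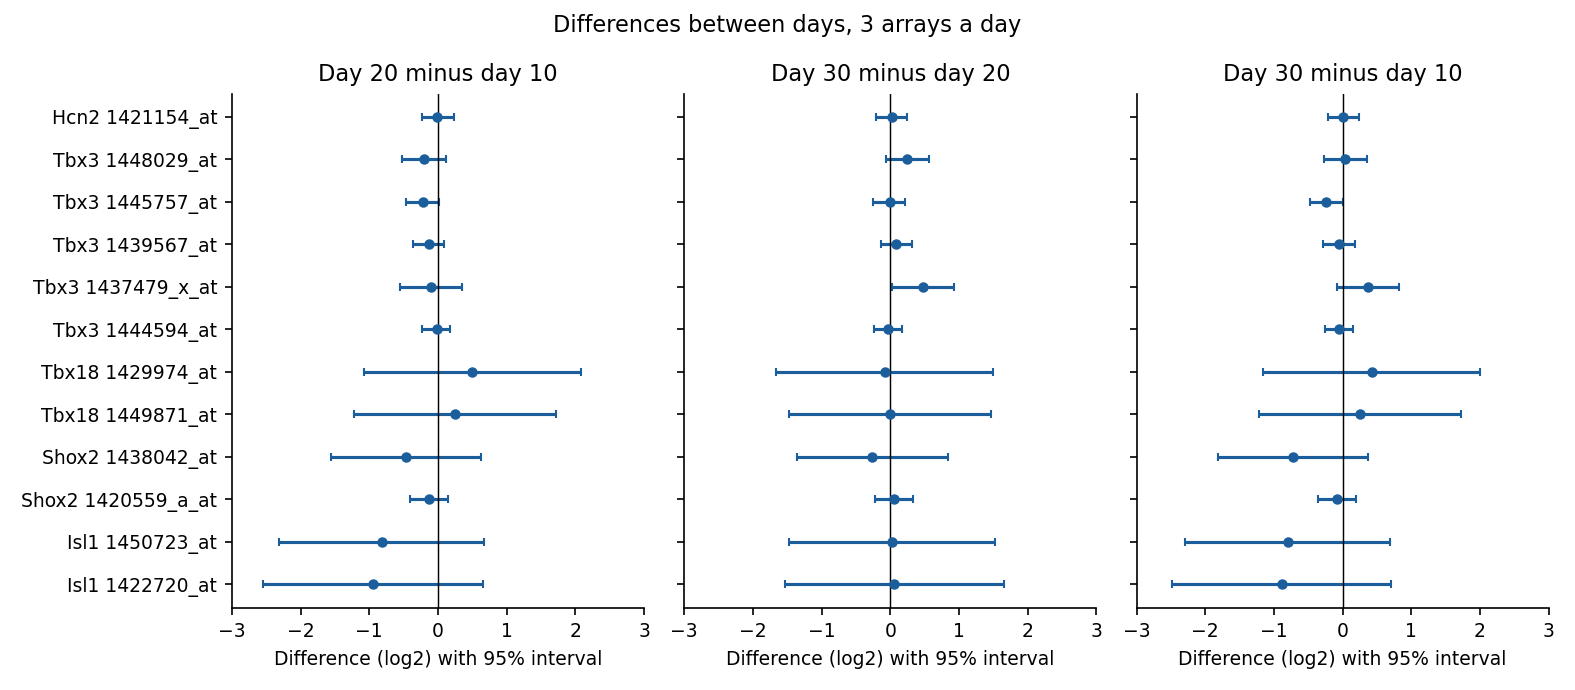
Differences between days for the 12 probe sets (rows), with a panel for each pair of days, points for the log2 difference and bars for the 95% interval of the limma fit (3 arrays a day). The intervals of Hcn2 are within 0.25 of 0, those of Isl1 and Tbx18 are the widest, and the only interval that leaves out 0 is that of the Tbx3 probe set 1437479_x_at between day 30 and day 20 (0.02 to 0.92).

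The spread between arrays of 1 day set these genes apart in description. Within-day SD, pooled over the 3 ages, was 0.93 for the brighter Isl1 probe set and 0.98 for that of Tbx18, which put them at the 99.2nd and 99.4th percentile of all probe sets, where the median was 0.18. The brighter Shox2 probe set had 0.68 (97.1th percentile), the brightest of Tbx3 had 0.17 (48.8th) and Hcn2 had 0.11 (25.3th). Isl1 and Tbx18 tended to depart from their day means in opposite directions, though the relation did not pass after adjustment. Of 10 pairs of genes compared over the 9 arrays on their brightest probe sets, Tbx18 and Isl1 had Pearson r = -0.73 (exact permutation p = 0.0277, adjusted p = 0.138) and Spearman rho = -0.63 (exact permutation p = 0.076, adjusted p = 0.253). Without the 2 arrays farthest from the Tbx18 median, which were the day 10 arrays numbered 1 and 3, r was -0.83 (n = 7). It was -0.71 for deviations from day means and -0.80 after the mean of each replicate number was taken off. Number means were taken over all 3 days, though the array numbers of day 10 did not pair with those of the later days. For deviations from day means other pairs had values larger in size. These were -0.85 for Hcn2 and Shox2, -0.79 for Hcn2 and Tbx3, -0.76 for Tbx3 and Isl1, and 0.76 for Hcn2 and Isl1. Once the number means were taken off, Hcn2 and Tbx3 had -0.14, Tbx3 and Isl1 had 0.25, and Hcn2 and Isl1 had -0.13. Shox2 and Isl1 had r = -0.46 (exact permutation p = 0.206, adjusted p = 0.343), with -0.84 for deviations from day means and 0.61 once the number means were taken off. Hcn2 and Shox2 had r = -0.76 (exact permutation p = 0.0205, adjusted p = 0.138) and rho = -0.67 (exact permutation p = 0.0589, adjusted p = 0.253), but r = -0.40 without 2 arrays numbered 2 and 0.03 once the replicate number means were taken off, so that this relation rested on the arrays numbered 2. None of the 10 pairs passed after adjustment, and within 1 day or 1 number there were too few arrays for a value.

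**Figure D3:**
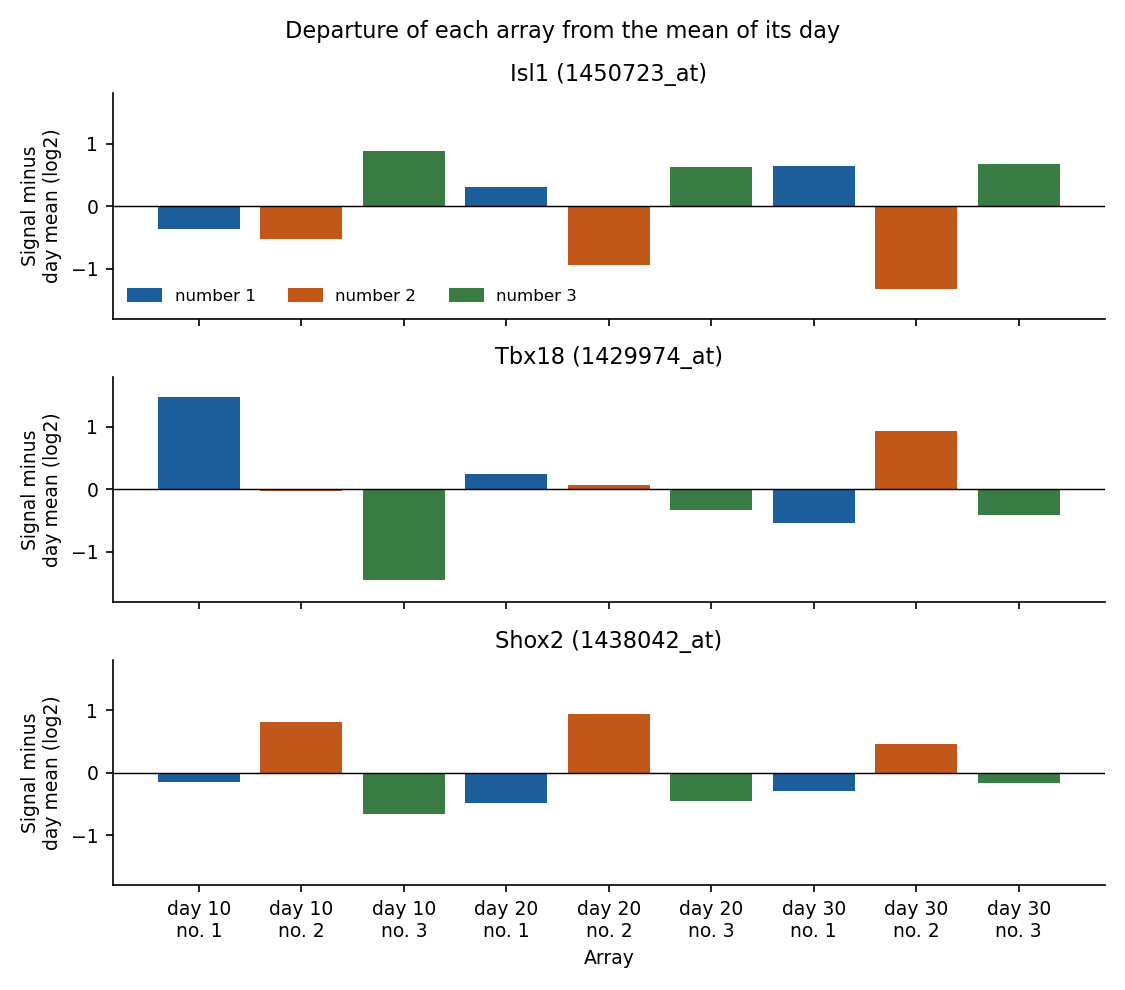
Log2 signal of each array minus the mean of its day (vertical axis) for the brightest probe sets of Isl1, Tbx18 and Shox2, with a bar for each of the 9 arrays and a colour for each array number. Isl1 is lowest and Shox2 highest in the array numbered 2 at all 3 ages, while the Tbx18 bars point up or down in different numbers at day 10 and day 30.

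Some members had the same array number lowest or highest at every age. The array numbered 2 was the lowest at all 3 ages for 3 of 12 members' probe sets (Hcn2 and both of Isl1, 4.86% of all probe sets). It was the highest at all 3 ages for 2 of 12 (1438042_at of Shox2 and 1448029_at of Tbx3, 4.51% of all). Number 2 was singled out after the values were seen. Counting any number, 4 of 12 had the same number lowest at all 3 ages (13.9% of all) and 3 of 12 the same number highest (13.3% of all). Over brighter probe sets the numbers did not pair day 10 with the later days. Without the 3 arrays numbered 2, a choice made after seeing these values, Isl1 differed by -0.40 and Shox2 by -0.55 between day 30 and day 10, Tbx18 by -0.06, and 0 of 12 probe sets passed. The day 30 array numbered 2 is also the one with the low 18S signal. The part of RNA quality in the low Isl1 reading was not tested.

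Pairs of factors were compared by their difference within each array, which shows unequal change and no ratio of levels. Tbx18 minus Tbx3 averaged 0.89 ± 1.47, 1.6 ± 0.22 and 1.27 ± 0.69 at day 10, 20 and 30 (SD, n = 3, exact permutation p = 0.696 over 280 splits, adjusted p = 0.911 over 2 pairs). Shox2 minus Isl1 averaged -6.21 ± 1.44, -5.85 ± 1.63 and -6.13 ± 1.54 (SD, n = 3, exact permutation p = 0.911, adjusted p = 0.911). Neither pair passed the test for unequal change. Each pair includes a gene read by a dim probe set, Tbx3 or Shox2, so that the difference may hold little of that gene's change of RNA, and the 0.38 of the first pair lies near the 0.42 of Tbx18 alone. The day 30 minus day 10 change was 0.38 for the first pair and 0.08 for the second, and both turned negative without the day 10 array numbered 3 (-0.34 and -0.69) or the day 30 array numbered 2 (-0.01 and -0.81). The smallest p this design allows is 0.00357. A planned comparison of Hcn4 with Hcn2 was not made.

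The start sites of Isl1 and Tbx18 are shown because these genes varied most between arrays and tended to do so in opposite directions. That tendency did not pass after adjustment and was not theirs alone. Each sequence is RefSeq's, build GRCm38.p6, 250 bases before to 50 after the start of the gene, read 5′ to 3′ on the gene's own minus strand. Capitals mark matches on either strand to TAAT, the core read by homeodomain proteins such as ISL1 and SHOX2, or to AGATAA, a core read by GATA factors; no 2 matches overlap. Isl1 lies at chr13:116309639-116309938 and Tbx18 at chr9:87731211-87731510.
Isl1: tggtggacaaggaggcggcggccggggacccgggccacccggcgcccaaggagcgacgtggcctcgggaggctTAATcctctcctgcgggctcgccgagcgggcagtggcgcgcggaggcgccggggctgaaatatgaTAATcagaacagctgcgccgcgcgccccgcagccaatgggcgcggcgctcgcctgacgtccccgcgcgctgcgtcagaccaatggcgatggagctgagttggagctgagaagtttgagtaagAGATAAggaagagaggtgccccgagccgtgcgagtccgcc
Tbx18: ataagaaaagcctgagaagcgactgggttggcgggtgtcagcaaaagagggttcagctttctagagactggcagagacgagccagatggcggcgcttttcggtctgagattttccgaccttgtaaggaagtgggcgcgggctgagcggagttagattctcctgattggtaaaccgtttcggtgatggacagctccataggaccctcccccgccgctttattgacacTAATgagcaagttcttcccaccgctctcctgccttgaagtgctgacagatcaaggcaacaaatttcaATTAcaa
Isl1 held TAAT at -177 and -112 from the start and AGATAA at 10, and Tbx18 held TAAT at -24 and its reverse at 43. TAAT occurred in 58.0% and AGATAA in 11.2% of the 32851 promoters of this length, so these matches are common letters and no sign of binding. The T-box core GGTGTGA, found in 3.98% of promoters, was in none of the windows of Hcn2, Tbx18, Shox2 and Isl1. Shox2 held TAAT at -239 and TATAAA, the letters of a TATA box, at -203 (13.6% of promoters hold TATAAA). These too are letter matches and no sign of use. G and C made up 72.3% of the Hcn2 window and 69.0% of that of Isl1, against 53.3% for Shox2, 51.7% for Tbx18 and a median of 52.7% over all promoters.

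Some genes of heart currents and calcium cycling rose, among them Kcnj12, a gene of working muscle. Of 12 measured genes for other currents and calcium cycling, 4 rose and 0 fell between day 30 and day 10 (median 0.56), against 10.3% of all genes rising and 8.91% falling (median -0.03). Cacna1g, the T-type calcium channel gene of the node, read 5.12, 5.39 and 4.90 at day 10 and 9.11, 9.89 and 8.96 at day 30, a rise of 4.18 (SE 0.33, limma adjusted p = 0.00032). Kcnj3, a subunit of the acetylcholine-gated potassium channel, rose by 4.06 (SE 0.84, limma adjusted p = 0.015). Kcnj12, an inward rectifier potassium channel gene of working muscle, rose by 1.47 (limma adjusted p = 0.021), but missed the threshold without the day 10 arrays numbered 1 or 2 or the day 30 arrays numbered 1 or 3 (highest adjusted p = 0.072). Atp2a2, which encodes the calcium pump of the sarcoplasmic reticulum, was the fourth, with 0.92 (limma adjusted p = 0.043), and missed it without any single array of day 20 or day 30 (highest adjusted p = 0.12). The count of genes that rose was 2 without the day 30 arrays numbered 1 or 3 and in the fit of the 2 days alone. In addition 1 gene of the list fell without the day 10 or the day 30 array numbered 1 and with array weights. The list's median was 0.06 without the day 10 array numbered 1 and 1.06 without the day 10 array numbered 3. Slc8a1, whose promoter drove the puromycin selection, differed by -1.13 (limma adjusted p = 0.088).

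**Figure D4:**
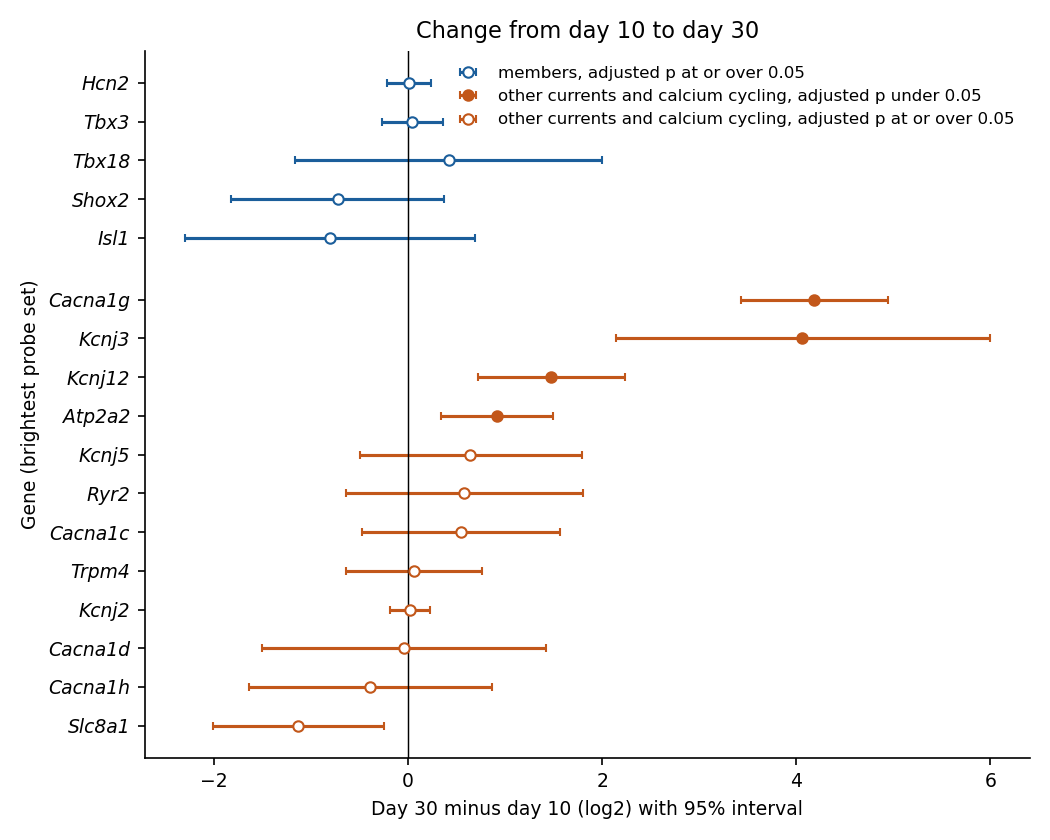
Day 30 minus day 10 difference (log2, horizontal axis) of the brightest probe set of each member (blue) and of 12 genes of other currents and calcium cycling (orange). Bars are 95% intervals from 3 arrays a day, and filled points mark a limma adjusted p under 0.05. Cacna1g at 4.18 and Kcnj3 at 4.06 lie far to the right, Kcnj12 and Atp2a2 also pass, and the intervals of all 5 members include 0.

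Of 16 measured sinus node and conduction markers, 2 rose and 1 fell (median 0.18). For this list and those below, the shares of all genes are 10.3% rising and 8.91% falling (median -0.03). Ntm, a cell adhesion gene, rose by 2.50 (limma adjusted p = 0.013) and Bves, a cAMP-binding membrane protein gene of the Popeye family, fell by 1.64 (limma adjusted p = 0.0051; -1.51 and 0.087 without the 3 arrays numbered 2). Rgs6, which dampens the vagal slowing of the node, rose by 1.86 (limma adjusted p = 0.041), a call lost without any 1 of 7 arrays, all but the day 10 array numbered 2 and the day 20 array numbered 1 (highest adjusted p = 0.12), and the list's median ran from 0.06, without the day 10 array numbered 1, to 0.32, without the day 10 array numbered 2 or the day 30 array numbered 1. Of 8 working muscle genes that the node keeps low, only Irx4, a ventricular factor gene, rose (2.14, limma adjusted p = 0.032, median of the list 0.96), and that call was lost without any of 5 arrays, the day 10 arrays numbered 1 and 3 and all day 30 arrays (highest adjusted p = 0.1), and with the replicate block (0.064). The list's median was 0.57 without the day 10 array numbered 2 and 1.54 without the day 10 array numbered 3. Its count of genes that rose was 3 with array weights (median 1.84). It was 2 with an intensity trend and robust variance, with the brightest probe set of each gene and with only brighter probe sets. With the replicate block, the 2 days alone or any day 30 array left out it was 0. Gja1, the main connexin of working muscle, differed by 2.39 (limma adjusted p = 0.054) and Myl2, a ventricular light chain gene, by 1.49 (limma adjusted p = 0.18). Gja1 passed under several settings, among them without the day 10 array numbered 1 (limma adjusted p = 0.0059). With array weights both passed (limma adjusted p = 0.0079 and 0.036). Of 16 cardiac transcription factors that act with the members, Nr2f2, an atrial and venous factor gene, rose by 1.27 (limma adjusted p = 0.0039) and 0 fell (median 0.08, from -0.04 without the day 10 array numbered 1 to 0.39 without that numbered 2). Tbx20 (1.73, limma adjusted p = 0.088) and Zfpm2 (1.20, limma adjusted p = 0.075) passed without the day 10 array numbered 2 (limma adjusted p = 0.017 and 0.0059), where the list counted 4. Both also passed with the replicate block (limma adjusted p = 0.022 and 0.034), where the list counted 5. That block included day 10, whose array numbers did not pair with those of the later days.

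Of 14 measured genes of the second heart field, where Isl1 acts, 2 rose and 2 fell, where 10.3% of all genes rose and 8.91% fell. The counts thus lay near the shares over all genes. The list's median was -0.16, from -0.24 without the day 30 array numbered 3 to 0.0 without that numbered 2. Foxc2, a forkhead factor gene, rose by 1.61 (limma adjusted p = 0.0079), and Fgf10, a ligand of this field that was also added to the medium as protein, fell by 1.54 (limma adjusted p = 0.0091). Kdr, a VEGF receptor gene of progenitors and endothelium, fell by 1.13 (limma adjusted p = 0.021), a call lost without the day 10 array numbered 2 or any day 30 array (highest adjusted p = 0.073). Osr1, a factor gene of the posterior part of this field, was the other that rose (2.10, limma adjusted p = 0.034), and it missed the threshold without the day 10 arrays numbered 2 or 3 or the day 30 arrays numbered 1 or 3 (highest adjusted p = 0.1). Without the 3 arrays numbered 2 the list counted 0 in either direction.

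Markers of other cells that use these factors are given beside them. Tbx18 is also an epicardial gene: the mean signal of 9 other epicardial markers was 5.74, 5.28 and 4.85 in the day 10 arrays numbered 1, 2 and 3, 4.90, 4.86 and 5.53 at day 20, and 5.49, 5.95 and 5.39 at day 30. At day 10 and day 30 the array with the highest Tbx18 thus had the highest epicardial mean, and at day 20 the array with the lowest Tbx18 had the highest. Upk3b, a mesothelial surface gene picked after its values were seen, read 6.69, 5.74 and 4.09 at day 10, 5.01, 5.14 and 6.99 at day 20, and 6.54, 7.71 and 5.99 at day 30. Some other markers ran otherwise at day 10. Tcf21 read 4.08, 6.18 and 5.19, lowest where Tbx18 was highest. Aldh1a2 read 4.62, 4.30 and 5.03, highest where Tbx18 was lowest. Msln (4.15, 4.02 and 3.97) ranked these arrays as Tbx18 did. Bnc1 (5.84, 5.88 and 4.06) was lowest and Wt1 (4.62, 4.16 and 4.17) highest in the same array as Tbx18. Over the 9 markers 1 rose (Sema3d, 1.17, limma adjusted p = 0.0088) and 1 fell (Krt19, -3.29, limma adjusted p = 0.022, lost without the day 30 arrays numbered 2 or 3, highest adjusted p = 0.071), and 3 were dim: Wt1, which ran from 4.11 to 5.03, Aldh1a2 and Sema3d. Of all genes, 10.3% rose, 8.91% fell and 5657 of 18193 were dim. Tcf21 differed by 2.07 (limma adjusted p = 0.051, and 0.032 without the day 10 array numbered 2). The list's median was 0.20, and 0.88 and -0.08 without the day 10 arrays numbered 1 or 3, and without the 3 arrays numbered 2 the list counted 0 in either direction. The part of epicardial cells in the Tbx18 readings was not tested.

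Isl1 is also a gene of neurons. Of 13 measured neural markers 7 were dim, against 5657 of 18193 genes, and the list's mean lay between 4.54 and 5.11 in all 9 arrays. Some were brighter: day means were 5.62, 7.75 and 7.70 for Snap25, 6.07, 6.87 and 6.51 for Prph, and 6.19, 4.06 and 4.83 for Tubb3. Snap25 differed by 2.08 between day 30 and day 10 (limma adjusted p = 0.19). Between these days 3 of the list fell and 0 rose (median -0.14), where 8.91% of all genes fell and 10.3% rose. Without the day 30 array numbered 2 the list counted 1 that fell and 1 that rose, and without the 3 arrays numbered 2 it counted 0 and 1. Neurod1 (-0.59), Elavl4 (-0.52) and Nefl (-2.04) were those that fell (limma adjusted p = 0.012, 0.026 and 0.029). Elavl4 and Nefl lost that call without single arrays (highest adjusted p = 0.082 and 0.092). Neurod1, dim like Elavl4, lost it with the mean of its probe sets (-0.37, limma adjusted p = 0.072) and without the 3 arrays numbered 2 (-0.66, limma adjusted p = 0.072). Shox2 and Tbx3 are also genes of limb and body wall mesenchyme, of whose markers 2 of 10 rose and 1 fell (median -0.05): Prrx1 rose by 4.36 and Meox2 by 1.88, and Twist2 fell by 1.29 (limma adjusted p = 0.0018, 0.0093 and 0.031, that of Twist2 up to 0.095 without single arrays). Fibroblast and matrix markers rose in 8 of 11 (median 3.48), with Col1a1 at 6.28, Thy1 at 3.69 and Dcn at 6.73 (limma adjusted p = 0.00018, 0.0002 and 0.00024). In the cell cycle list 2 of 9 fell (median -2.18), Mcm2 with -2.23 and Bub1 with -3.04 (limma adjusted p = 0.014 and 0.032, and up to 0.05 and 0.1 without single arrays), while Top2a had -2.26 (limma adjusted p = 0.051). The list had means of 10.53, 10.88 and 8.79 in the day 10 arrays numbered 1, 2 and 3, 9.60, 7.85 and 8.95 at day 20, and 7.52, 7.88 and 8.66 at day 30. The day 10 array with the highest Isl1 and the lowest Tbx18 thus had the lowest cell cycle mean. At day 20 the array with the lowest Isl1 had the lowest mean, and at day 30 that with the highest Isl1 had the highest. The array with the lowest Tbx18 had the lowest mean at day 30 but not at day 20. Of the list, 9 of 9 fell without the day 10 array numbered 3, and 0 without the day 30 array numbered 1. The part of these cells and of cell division in the members' readings was not tested.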

How the data were processed

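RNA of 9 samples was labelled with biotin by the Affymetrix 3' IVT express kit, per the labels' protocols. The values are log2 signals per probe set as deposited by the authors. The normalization method is not given in the sources consulted, and neither is the logarithm's base, which was read off the range of 2.77 to 14.52. No further scaling was applied. Scanner files were not used, and 9 arrays limit the precision. Probe sets were named from the platform annotation where it gives 1 gene (34958 of 45101; 932 have several and 9211 none), and symbols were checked by gene identifier against RefSeq (34754 matched, 0 differed).

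The 64 array controls were left out, and limma 3.58.1 in R 4.3.3 was fitted to 45037 probe sets with a mean for each day (6 residual and 2.19 prior degrees of freedom). Tests are two-sided, and p-values were adjusted by Benjamini-Hochberg over all probe sets, with a threshold of 0.05. A gene's brightest probe set is that with the highest mean over 9 arrays. The fit was tested on simulated data with the spreads of the real probe sets. Of 100 probe sets changed by 1 on the log2 scale at day 30 it recovered 54, and of 100 changed by 2 it recovered 93. There were 8 false calls among 155. The changed probe sets were drawn from all, so these shares do not hold for Isl1 or Tbx18, which varied more than most. The simulated probe sets also varied independently and only those named were changed, whereas 6813 passed between day 30 and day 10 in the data. The shares therefore do not carry over directly to the real fit. Exact permutation tests over all splits or pairings used scipy 1.17.1.

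The members and the gene lists were chosen with earlier results of these data known. All probe sets of the members are named; each list names up to 3 genes in order of adjusted p between day 30 and day 10, and members were left out of the lists. Osr1, Atp2a2, Slc8a1, Upk3b and Wt1 were added to these after their values were seen. Aldh1a2, Msln, Bnc1, Snap25, Prph and Tubb3 were also named outside this rule. The same-numbered arrays of day 20 and day 30 departed together from their day means (correlations 0.13, 0.54 and 0.38 over 19038 brighter probe sets). The numbers may therefore pair these days. The main fit held no term for the number, so its tests between day 30 and day 20 leave any such pairing out. The day 20 array numbered 1 had a higher correlation with the day 30 array numbered 3 (0.25), so number 1 paired weakly at best. Deviations from a mean of 3 arrays sum to 0, so these correlations are not independent. With day 10 the same-numbered arrays did not depart together (0.21, 0.03 and 0.01 with day 20, and -0.05, -0.08 and -0.28 with day 30). Alternatives were other normalizations, a filter on dim probe sets, 1 value per gene, other variance models, array weights, the days compared alone, the replicate block and each array left out. The replicate block and the subtraction of number means covered all 3 days. For day 10 they thus rest on a pairing that the correlations do not show.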

Additional observations from a re-analysis of the deposited data

How the results depend on the processing

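No member probe set passed the threshold under any of the 19 alternatives in any contrast of days; the lowest adjusted p was 0.053 (Shox2, array weights). The count of all probe sets called was less stable. With array weights it was 10899 for day 20 minus day 10, 279 for day 30 minus day 20, 11501 for day 30 minus day 10, 2780 between intervals and 12056 over all days. With the brightest probe set per gene it was 2545, 3841 (day 30 minus day 10) and 3189 (all days), and with the mean of each gene's probe sets 2370, 3760 and 3049, where fewer features were tested. With only the 2 days compared it was 2105, 5 and 4318. An intensity trend with robust variance gave 102 for day 30 minus day 20 and 106 between intervals, and only brighter probe sets gave 169 between intervals. The replicate block gave 2 for day 30 minus day 20 and changed no member's call. Leaving out the 3 arrays numbered 2, added after seeing the data, gave 384, 0, 1935, 0 and 678. Leaving out single arrays gave 1427 to 8493, 6 to 98, 4168 to 9163, 0 to 2903 and 2941 to 9012. The highest count of each of these ranges came without the day 10 array numbered 3. Beyond those alternatives' own construction, the cause was not tested.

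Of 618 members' differences under alternatives, 42 turned sign, all in values that never passed. With single arrays left out, the ranges were -0.06 to 0.06, -0.05 to 0.08 and -0.04 to 0.07 for Hcn2 (day 20 minus 10, 30 minus 20, 30 minus 10); -0.04 to 0.13 for Tbx3 1448029_at (30 minus 10); -0.07 to 0.08 for 1445757_at (30 minus 20); -0.31 to 0.03 for 1437479_x_at (20 minus 10); -0.08 to 0.04 and -0.07 to 0.01 for 1444594_at (20 minus 10, 30 minus 20). They were -0.22 to 1.24, -0.55 to 0.18 and -0.30 to 1.15 for Tbx18 1429974_at, and -0.49 to 0.91 and -0.48 to 0.91 for 1449871_at (20 minus 10, 30 minus 10). They were -0.50 to 0.21 for Shox2 1438042_at (30 minus 20), -0.03 to 0.12 and -0.18 to 0.01 for 1420559_a_at (30 minus 20, 30 minus 10), -0.45 to 0.68 and -0.42 to 0.79 for Isl1 1450723_at and 1422720_at (30 minus 20), and -0.15 to 0.04 for Hcn3 (30 minus 20). Tbx18 minus Tbx3 ran from -0.34 to 1.13 and Shox2 minus Isl1 from -0.81 to 0.74. Array weights gave 0.07 for Hcn2 and 0.07 for 1444594_at (20 minus 10), and -0.02 for Tbx3 1448029_at and 0.01 for 1444594_at (30 minus 10). They gave -0.02 and -0.05 for Tbx18 1449871_at. Quantile normalization gave -0.02 for Hcn2 (30 minus 10). Without the arrays numbered 2, Tbx3 1448029_at was at -0.02, Tbx18 1429974_at at -0.06 and Shox2 1420559_a_at at 0.03.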

Other observations

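Since no member passed the test over the days, no gene was named in advance for a like pattern. After the values were seen, the genes whose profile over the 9 arrays lay closest to those of Isl1, Tbx18 and Shox2 were taken, by the root mean square difference of log2 values after each profile's own mean was subtracted, among about 9096 genes brighter than the median gene. For Isl1, whose own profile has a root mean square of 0.85, the closest were Mtmr7, a lipid phosphatase gene (0.34), Rap1gap2, a Rap1 regulator (0.42), and Thoc2, a gene of mRNA export (0.45). For Tbx18 (0.83) they were Pmp22, a membrane protein gene of myelin and other cells (0.44), Gnptab, a gene of lysosomal enzyme sorting (0.45), and 1500009L16Rik (0.47). For Shox2 (0.63) they were Asb4 (0.28), Acsl4, a long-chain acyl-CoA synthetase gene (0.29), and Ttyh3 (0.30). These values are a description of 9 arrays, and the genes were picked as the closest of many.

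Endoderm markers were low in these cultures: 4 of 8 were dim, against 5657 of 18193 genes. Between day 30 and day 10 1 of them fell, where 8.91% of all genes did. This was Cdh1, the epithelial cadherin gene, with a fall of 2.45 (limma adjusted p = 7.6e-05). Of the 12 cardiomyocyte markers 1 rose, where 10.3% of all genes did. This was the adult troponin gene Tnni3, with a rise of 2.85 (limma adjusted p = 0.0012).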
